A study of Mus musculus with 6 samples.

Results

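Endoplasmic reticulum (ER) stress and chaperone genes were followed in bulk mRNA sequencing of mouse epididymal white adipose tissue, a visceral fat depot of the male. The 33 genes were taken by symbol from a named list and were all found among the 32244 genes of the deposited table; all 33 were among the 16121 genes with enough counts to be tested. Eepd1 knockout mice (EKO, 3 libraries) were set against wild-type mice (WT, 3 libraries), both on the C57BL/6J background and both fed a high-fat diet for 3 months. The labels used here name no other allele or agent and give neither the age, the kind of Eepd1 allele, nor whether each library is 1 animal or a pool. P-values therefore measure the spread between these libraries. The study asks, by its title, how the protein product of Eepd1 bears on lipolysis, thermogenesis and protein kinase A.

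The ER folds secreted and membrane proteins with chaperones, lectins and disulfide isomerases. When unfolded protein builds up, the membrane sensors ATF6, IRE1 (encoded by Ern1) and PERK (encoded by Eif2ak3) start the unfolded protein response. ATF6 is cleaved to a transcription factor that drives chaperone genes, IRE1 splices the Xbp1 mRNA into one that encodes an active factor for co-chaperones and ER-associated degradation (ERAD, the export and destruction of misfolded protein), and PERK phosphorylates eIF2α so that Atf4 mRNA is translated and ATF4 drives amino acid and cell death genes. Many targets answer to more than one of these factors, so the 12 ATF6-linked, 8 XBP1-linked and 5 ATF4-linked genes below are groups of convenience from textbook knowledge, beside 5 sensors and factors and 3 other folding genes. Splicing of Xbp1, cleavage of ATF6 and translation of Atf4 are not seen in gene counts. In fat, signs of ER stress are known to accompany obesity, and macrophages and antibody-secreting cells also carry much ER.

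Promoter windows are shown first, with the letters that the ER stress factors are known to bind. Genes are tied to these factors partly through such letters. The shares below are therefore not independent of the choice of genes. The windows run from 250 bases before to 50 after the RefSeq start site (build GRCm38.p6) and were available for 29 of the 33 members. The ER stress response element (ERSE), CCAAT and CCACG with 9 free bases between them, is the classical site of ATF6 with the factor NF-Y. On either strand it was found in 9 of the 29 members, or 31.0%, against 37 of 27025 genes with a window, or 0.137%. ERSE-II (ATTGG, 1 free base, CCACG) was found in 2 of 29 members, or 6.9%, against 12 genes, or 0.0444%. The site bound by ATF4 with C/EBP factors (CARE, TGATGNAA) was found in 4 of 29 members, or 13.8%, against 1219 genes, or 4.51%. The XBP1-type element TGACGTGG was found in 0 of 29 members and in 193 genes, or 0.714%. No motif overlapped another in a member, and no match says only that these letters are not in this window.

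The windows of Hspa5, Hsp90b1 and Calr stand for the ERSE genes, Dnajb11 and Herpud1 for ERSE-II, and Herpud1 and Asns for CARE. They are written 5′ to 3′ on the strand of the gene. Capitals mark the element with its free bases, and an element on the other strand appears as its complement.
Hspa5, chr2:34771840-34772139, plus strand, ERSE: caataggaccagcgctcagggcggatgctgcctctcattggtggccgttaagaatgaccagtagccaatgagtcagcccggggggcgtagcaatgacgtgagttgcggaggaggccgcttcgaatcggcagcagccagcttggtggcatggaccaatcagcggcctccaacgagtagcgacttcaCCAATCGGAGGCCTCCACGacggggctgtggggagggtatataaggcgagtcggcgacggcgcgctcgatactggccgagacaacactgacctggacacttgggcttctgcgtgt
Hsp90b1, chr10:86705395-86705694, minus strand, ERSE on both strands: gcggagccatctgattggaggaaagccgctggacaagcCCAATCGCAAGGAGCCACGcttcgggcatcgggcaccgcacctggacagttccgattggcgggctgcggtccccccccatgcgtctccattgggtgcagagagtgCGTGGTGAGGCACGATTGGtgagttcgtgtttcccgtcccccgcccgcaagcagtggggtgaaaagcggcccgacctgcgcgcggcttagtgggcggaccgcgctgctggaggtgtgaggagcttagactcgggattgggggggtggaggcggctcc
Calr, chr8:84846882-84847181, minus strand, ERSE on the other strand: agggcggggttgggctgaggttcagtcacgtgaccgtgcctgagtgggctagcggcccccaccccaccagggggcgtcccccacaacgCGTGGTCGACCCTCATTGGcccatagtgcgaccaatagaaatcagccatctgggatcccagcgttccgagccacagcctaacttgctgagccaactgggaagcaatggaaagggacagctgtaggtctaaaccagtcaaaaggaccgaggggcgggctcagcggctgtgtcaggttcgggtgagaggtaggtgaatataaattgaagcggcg
Dnajb11, chr16:22857595-22857894, plus strand, ERSE-II: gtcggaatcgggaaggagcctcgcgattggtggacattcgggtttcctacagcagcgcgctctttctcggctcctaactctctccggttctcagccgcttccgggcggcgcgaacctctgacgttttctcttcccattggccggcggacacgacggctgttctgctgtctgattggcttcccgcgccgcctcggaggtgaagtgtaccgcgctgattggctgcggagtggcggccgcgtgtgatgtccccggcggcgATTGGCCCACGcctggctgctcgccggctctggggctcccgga
Herpud1, chr8:94386179-94386478, plus strand, CARE on the other strand, then ERSE-II: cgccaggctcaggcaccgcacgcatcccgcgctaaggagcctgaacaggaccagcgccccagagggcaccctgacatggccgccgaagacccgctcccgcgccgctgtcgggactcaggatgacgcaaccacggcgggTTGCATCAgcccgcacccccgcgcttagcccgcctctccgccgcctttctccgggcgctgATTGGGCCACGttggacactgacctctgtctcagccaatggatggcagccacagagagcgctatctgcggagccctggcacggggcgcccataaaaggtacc
Asns, chr6:7693160-7693459, minus strand, CARE: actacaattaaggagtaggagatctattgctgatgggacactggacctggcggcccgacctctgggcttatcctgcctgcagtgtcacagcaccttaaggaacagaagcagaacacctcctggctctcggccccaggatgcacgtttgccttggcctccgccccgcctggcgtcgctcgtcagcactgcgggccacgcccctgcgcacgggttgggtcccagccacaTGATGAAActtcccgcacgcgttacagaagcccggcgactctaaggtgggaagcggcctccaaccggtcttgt

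The remaining ERSE sites are given alone, on the strand where CCAAT comes first, with the fixed bases in capitals.
Pdia6: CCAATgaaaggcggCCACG
Creld2: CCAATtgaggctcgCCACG
Derl3: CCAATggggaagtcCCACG
Canx: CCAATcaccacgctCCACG
Dnajc3: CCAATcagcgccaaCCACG
Syvn1: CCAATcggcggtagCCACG
The site lay at positions -98 to -80 from the start site in Pdia6, -126 to -108 in Creld2, -156 to -138 in Derl3, -145 to -127 in Canx, -105 to -87 in Dnajc3 and -44 to -26 in Syvn1. The ERSE of Hspa5 lay at -65 to -47, and that of Calr at -162 to -144. The ERSE-II of Dnajb11 lay 8 to 18 bases after the start, inside the transcript, whereas that of Herpud1 lay at -52 to -42.

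**Figure D1:**
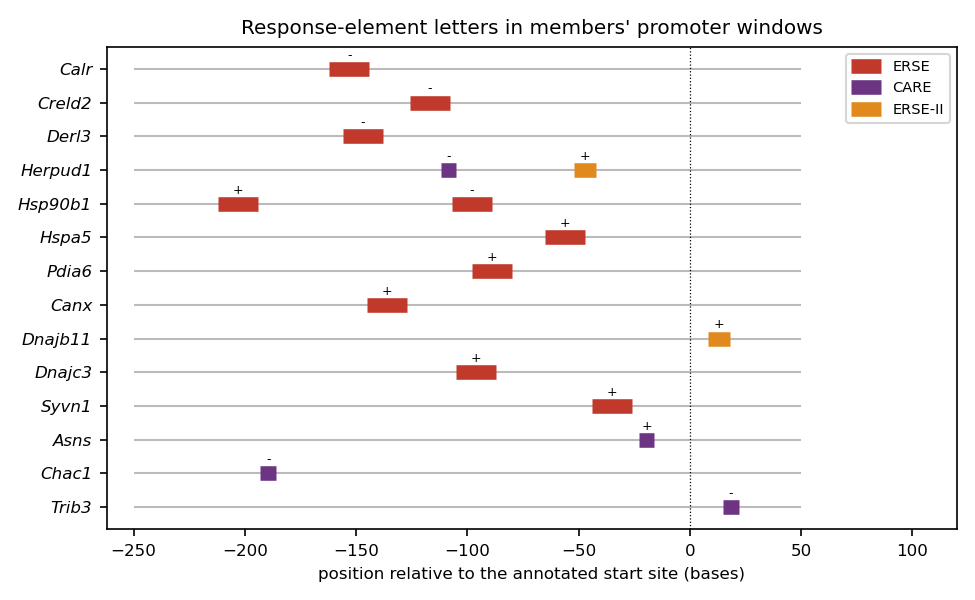
Position of the ERSE (red), ERSE-II (orange) and CARE (purple) letters in the windows of the 14 members that hold at least 1 of them; grey lines are the windows, the x axis is the distance from the start site in bases, and + or - is the strand of the element. ERSE sites lie between -212 and -26, and CARE is found in Herpud1, Asns, Chac1 and Trib3.

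Total counts per library were 17215072 to 18330206, and a gene seen 0 times in a library could still be at up to 0.154 to 0.192 CPM, the level of 3 counts, a limit for counting error only. CPM here means counts over the library total after TMM scaling. Eepd1 itself (ENSMUSG00000036611, chromosome 9, 25481547 to 25604110, plus strand, GRCm38) was at 152, 47.7 and 116 CPM in EKO libraries 1, 2 and 3, against 244, 304 and 192 CPM in WT libraries 1, 2 and 3. It was lower in every EKO library but still counted, and the log2 difference of -1.23 ± 0.42 (SE) had an adjusted p of 0.106 in edgeR. EKO replicate 2 and WT replicate 2 stood at the ends of the first principal component, which held 62.4% of the variance, and WT replicate 2 also carried 412 CPM of the sperm gene Prm1, against at most 14.5 CPM in the other libraries. Summed over 15 adipocyte markers, EKO libraries held 5753 to 16519 CPM, against 29074 to 49988 CPM in WT libraries. Over 15 macrophage markers EKO libraries held 18617 to 32468 CPM, against 2497 to 7124 CPM in WT libraries. All 15 adipocyte markers were detected, as the tissue label asks, and both sums differed between genotypes with no overlap. In bulk tissue fewer cells of a type and less RNA per cell cannot be told apart, and the part of cell makeup in the differences below was not tested.

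Most ER chaperone genes stood higher in EKO fat. The 5 ATF4-linked stress genes had overlapping groups, as did 57.2% of all genes tested. Of the 33 members, 27 had a positive and 6 a negative log2 difference, with a median of 0.39 against 0.019 over all genes tested. In 22 members, or 66.7%, every EKO library was above every WT library (called wholly higher here), against 25.1% of all genes. In 2 members, Herpud1 and Derl1, every EKO library was below every WT library (wholly lower), against 17.7% of all genes. The edgeR quasi-likelihood test called 0 members and 0% of all genes at an adjusted p under 0.05. At an unadjusted p under 0.05 it gave 16 members higher and 1 lower, against 18.9% and 13.8% of all genes. The lowest adjusted p that edgeR gave to any gene was 0.0628, a value tied among genes of unlike unadjusted p. Sdf2l1, Dnajb11 and Edem2 shared it with genes outside the 33. Among those were Tmx1, Fam8a1, Hspb8, Eif4ebp1 and Ostc, the last at an edgeR unadjusted p of 0.00299.

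Other tests placed the line elsewhere. The DESeq2 Wald test called 12 members higher (36.4%) and 1 lower, against 10.9% and 10.1% of all genes with an adjusted p. Those higher were Hspa5, Hsp90b1, Calr, Hyou1, Manf, Sdf2l1, Sel1l, Dnajb11, Edem2, Derl2, Canx and Pdia3, and the one lower was Derl1. The authors' deposited values nearly equal these DESeq2 values, with Hspa5 at an authors' adjusted p of 0.00704 against 0.00705 in DESeq2. They are therefore not a further test. At an adjusted p under 0.05, the authors' deposited table has 12 members higher and 1 lower. Its mark of significance is given to 1 of them, Sdf2l1, and to 5.09% of genes up and 5.04% down; no gene so marked in the authors' deposited table has an absolute log2 fold change under 1. Without WT replicate 2, edgeR called 1 member higher, again Sdf2l1, and 0 lower, against 1.96% and 0.727% of all genes. Leaving out each library in turn, 22 to 24 members stood wholly higher and 2 to 3 wholly lower, while the shares of all genes ran from 27.0% to 31.1% and from 19.7% to 23.7%. In the fit to all 6 libraries, none of the log2 differences below has an edgeR call. In 17 of the 33 members, leaving out 1 library turned the sign or moved the value by more than 1.5 times.

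**Figure D2:**
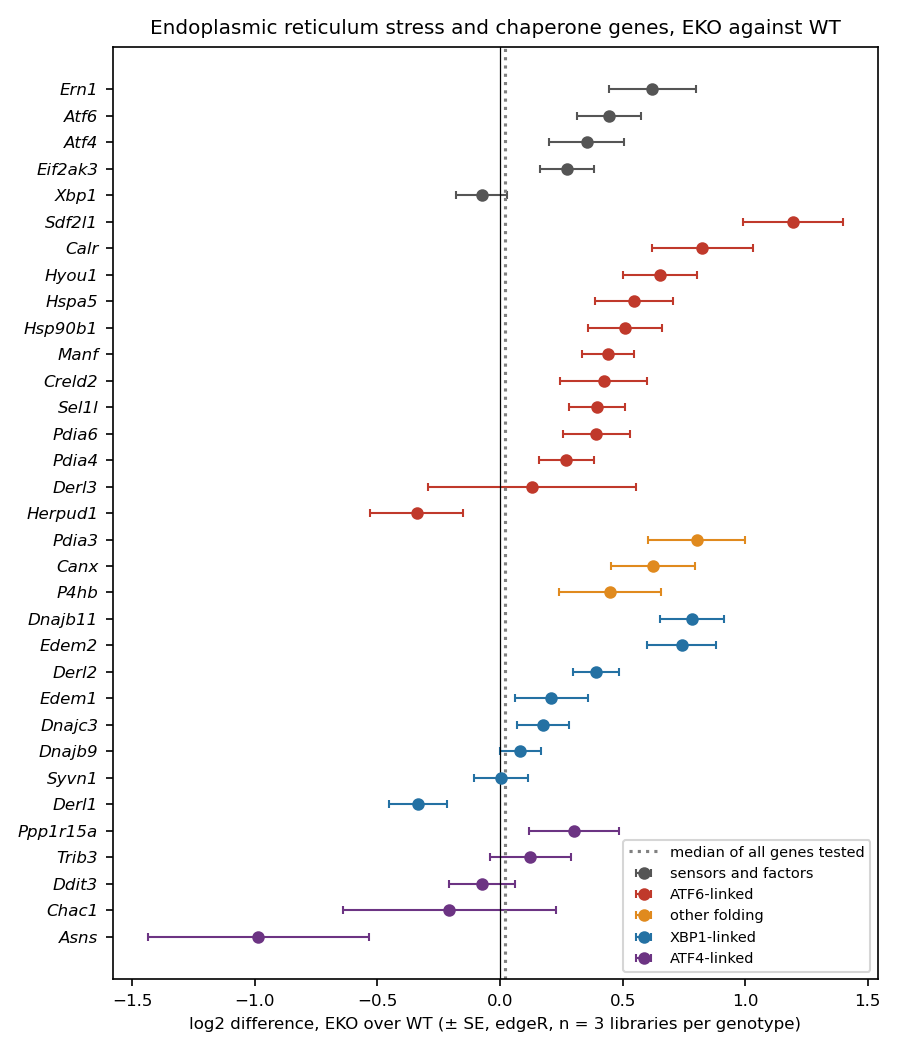
Log2 difference, EKO over WT, of the 33 members (points) with its standard error (bars, edgeR, 3 libraries per genotype), by group from top to bottom: sensors and factors, ATF6-linked, other folding, XBP1-linked and ATF4-linked. The dotted line is the median of all genes tested, 0.019; Sdf2l1 at 1.20 and Asns at -0.99 are the ends of the range.

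The sensors stood higher while Xbp1 did not. Atf6 (ENSMUSG00000026663, chromosome 1, 170704674 to 170867771, minus strand, GRCm38) was at 117, 144 and 118 CPM in EKO libraries 1, 2 and 3, against 92.9, 84.5 and 102 CPM in WT libraries 1, 2 and 3. All EKO values lay above all WT values, with a log2 difference of 0.45 ± 0.13 (SE) and an edgeR adjusted p of 0.0796. Ern1, the kinase and nuclease that splices Xbp1, was at 52.4, 73.6 and 51.0 CPM in EKO libraries and 39.9, 33.6 and 41.5 CPM in WT libraries, a log2 difference of 0.62 ± 0.18 with an edgeR adjusted p of 0.0762. EKO replicate 2 was the highest and WT replicate 2 the lowest for both genes, and without EKO replicate 2 the difference of Ern1 was 0.41. Eif2ak3, the eIF2α kinase PERK, was at 38.1, 38.2 and 38.2 CPM in EKO libraries, against 33.3, 28.0 and 33.3 CPM in WT libraries. Its EKO libraries were nearly equal, and the difference was 0.27 ± 0.11 on the log2 scale (edgeR adjusted p = 0.145) and 0.14 without WT replicate 2.

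Xbp1 (ENSMUSG00000020484, chromosome 11, 5520659 to 5525893, plus strand, GRCm38), the target of IRE1 splicing, was at 197, 198 and 202 CPM in EKO libraries and 206, 199 and 225 CPM in WT libraries. The groups overlapped, and the log2 difference was -0.075 ± 0.10 (edgeR adjusted p = 0.637), which ran from -0.17 without WT replicate 2 to -0.014 without WT replicate 3. Atf4, whose mRNA is mainly controlled at translation, was at 137, 174 and 140.3 CPM in EKO libraries, against 121, 100.3 and 132 CPM in WT libraries. Its EKO values were all above its WT values, with 0.35 ± 0.15 on the log2 scale and an edgeR adjusted p of 0.168. It was 0.21 with EKO replicate 2 left out, and 0.19 with WT replicate 2 left out. Within a library, Atf6 counts were 0.636 ± 0.0792 of Xbp1 counts in EKO libraries and 0.443 ± 0.0152 in WT libraries (SD, n = 3 each). Ern1 counts were 0.296 ± 0.0651 of Xbp1 counts in EKO libraries and 0.183 ± 0.0123 in WT libraries. These ratios need no scaling between libraries; these pairs and those below were chosen after their values were seen and carry no test.

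Among ATF6-linked genes 10 of 12 stood wholly higher in EKO fat, against 25.1% of all genes tested. Sdf2l1 (ENSMUSG00000022769, chromosome 16, 17130138 to 17132383, minus strand, GRCm38), which joins the co-chaperone Dnajb11 in a complex that keeps unfolded protein soluble, had the largest difference of the 33. It was at 50.7, 58.2 and 44.8 CPM in EKO libraries, against 22.3, 17.0 and 27.8 CPM in WT libraries. The lowest EKO library was above the highest WT library, and the log2 difference was 1.20 ± 0.20 with an edgeR adjusted p of 0.0628. Without WT replicate 2 it was 0.98 with an edgeR adjusted p of 0.0454. No ERSE, ERSE-II, CARE or XBP1-type letters were in its window.

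Hspa5 (ENSMUSG00000026864, chromosome 2, 34771970 to 34777547, plus strand, GRCm38) encodes BiP, the main Hsp70 chaperone of the ER, and was at 866, 766 and 792 CPM in EKO libraries, against 537, 497 and 625 CPM in WT libraries. Here EKO replicate 2 was the lowest of the EKO libraries, whereas it was the highest in Calr, Hsp90b1 and Hyou1, and the groups stayed apart, with a log2 difference of 0.55 ± 0.16 (edgeR adjusted p = 0.0796, DESeq2 adjusted p = 0.00705). Hyou1, the large nucleotide exchange factor of BiP, was at 148, 195 and 140.2 CPM in EKO libraries and 99.0, 99.4 and 109 CPM in WT libraries. Its difference of 0.65 ± 0.15 on the log2 scale had an edgeR adjusted p of 0.0639 and a DESeq2 adjusted p of 0.00840. Hsp90b1, the Hsp90 of the ER, was at 341, 394 and 301 CPM in EKO libraries, against 235, 225 and 267 CPM in WT libraries. The groups did not overlap (0.51 ± 0.15 on the log2 scale, edgeR adjusted p = 0.0807). The ratio of Sdf2l1 to Hspa5 counts was 0.0637 ± 0.0107 in EKO libraries and 0.0401 ± 0.00519 in WT libraries (SD, n = 3 each).

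Calr (ENSMUSG00000003814, chromosome 8, 84841850 to 84846934, minus strand, GRCm38) encodes calreticulin, a soluble lectin chaperone of glycoproteins. It was at 964, 1144 and 914 CPM in EKO libraries and 582, 455 and 668 CPM in WT libraries, a log2 difference of 0.83 ± 0.20 (edgeR adjusted p = 0.0668, DESeq2 adjusted p = 0.00276). Every EKO library was above every WT library by a wide gap. Its partners outside the ATF6 group went the same way. Canx, the membrane-bound lectin calnexin, was at 472, 605 and 433 CPM in EKO libraries, against 332, 299 and 349 CPM in WT libraries (0.62 ± 0.17 on the log2 scale, edgeR adjusted p = 0.0724). Pdia3, the disulfide isomerase that works with both lectins, was at 593, 838 and 614 CPM in EKO libraries, against 384, 344 and 444 CPM in WT libraries. EKO replicate 2 was well above the other EKO libraries for both Canx and Pdia3, and the log2 difference of Pdia3 was 0.80 ± 0.20 (edgeR adjusted p = 0.0662).

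P4hb, a disulfide isomerase that is also a subunit of collagen prolyl hydroxylase, was at 617, 878 and 615 CPM in EKO libraries and 522, 444 and 579 CPM in WT libraries. The gap between the lowest EKO and the highest WT library was small beside the spread, and the difference of 0.45 ± 0.21 had an edgeR adjusted p of 0.186. It was 0.24 without EKO replicate 2 and 0.30 without WT replicate 2. The isomerases Pdia4 and Pdia6 differed less. Pdia6 was at 265, 305 and 259 CPM in EKO libraries, against 202, 192 and 237 CPM in WT libraries (0.39 ± 0.14 on the log2 scale). Pdia4 was at 133, 149 and 129 CPM in EKO libraries, against 107, 110.0 and 124 CPM in WT libraries (0.27 ± 0.11 on the log2 scale). In both the lowest EKO library was above the highest WT library, and their edgeR adjusted p-values were 0.109 for Pdia6 and 0.154 for Pdia4.

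The ATF6-linked members Manf, Creld2 and Sel1l also stood higher. Manf, an ER protein that is also secreted as a survival factor, was at 45.2, 41.4 and 41.2 CPM in EKO libraries and 28.6, 32.2 and 33.4 CPM in WT libraries, with 0.44 ± 0.11 on the log2 scale and an edgeR adjusted p of 0.0656. Its annotated span overlaps Rbm15b on the same strand and Dcaf1 on the other, so its counts are uncertain where the strand setting of the counting is not given. Creld2, a secreted protein induced by ER stress, was at 39.5, 39.6 and 40.4 CPM in EKO libraries, against 22.9, 36.5 and 29.8 CPM in WT libraries. The EKO libraries were nearly equal while WT libraries were spread, and the difference was 0.42 ± 0.18 (edgeR adjusted p = 0.156) and 0.25 without WT replicate 1. Sel1l, the adaptor of the Hrd1 ubiquitin ligase in ERAD, was at 294, 317 and 284 CPM in EKO libraries, against 231, 213 and 237 CPM in WT libraries (0.39 ± 0.11 on the log2 scale, edgeR adjusted p = 0.0781).

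Herpud1 (ENSMUSG00000031770, chromosome 8, 94386438 to 94395377, plus strand, GRCm38) was the ATF6-linked exception. It encodes Herp, a short-lived membrane protein that helps assemble the Hrd1 complex, and is known as a target of ATF6, XBP1 and ATF4. It was at 75.1, 51.0 and 74.2 CPM in EKO libraries, against 77.5, 99.1 and 76.8 CPM in WT libraries. The groups were only just apart, EKO replicate 2 was far below the others, and the difference of -0.34 ± 0.19 had an edgeR adjusted p of 0.255 and was -0.20 without EKO replicate 2. Derl3, a derlin of secretory cells, was at 2.77, 2.05 and 4.00 CPM in EKO libraries and 2.03, 4.14 and 1.90 CPM in WT libraries. Its groups overlapped at these low levels (0.13 ± 0.42 on the log2 scale), and the sign turned to -0.15, -0.040 and -0.053 without EKO replicate 3, WT replicate 1 and WT replicate 3.

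**Figure D3:**
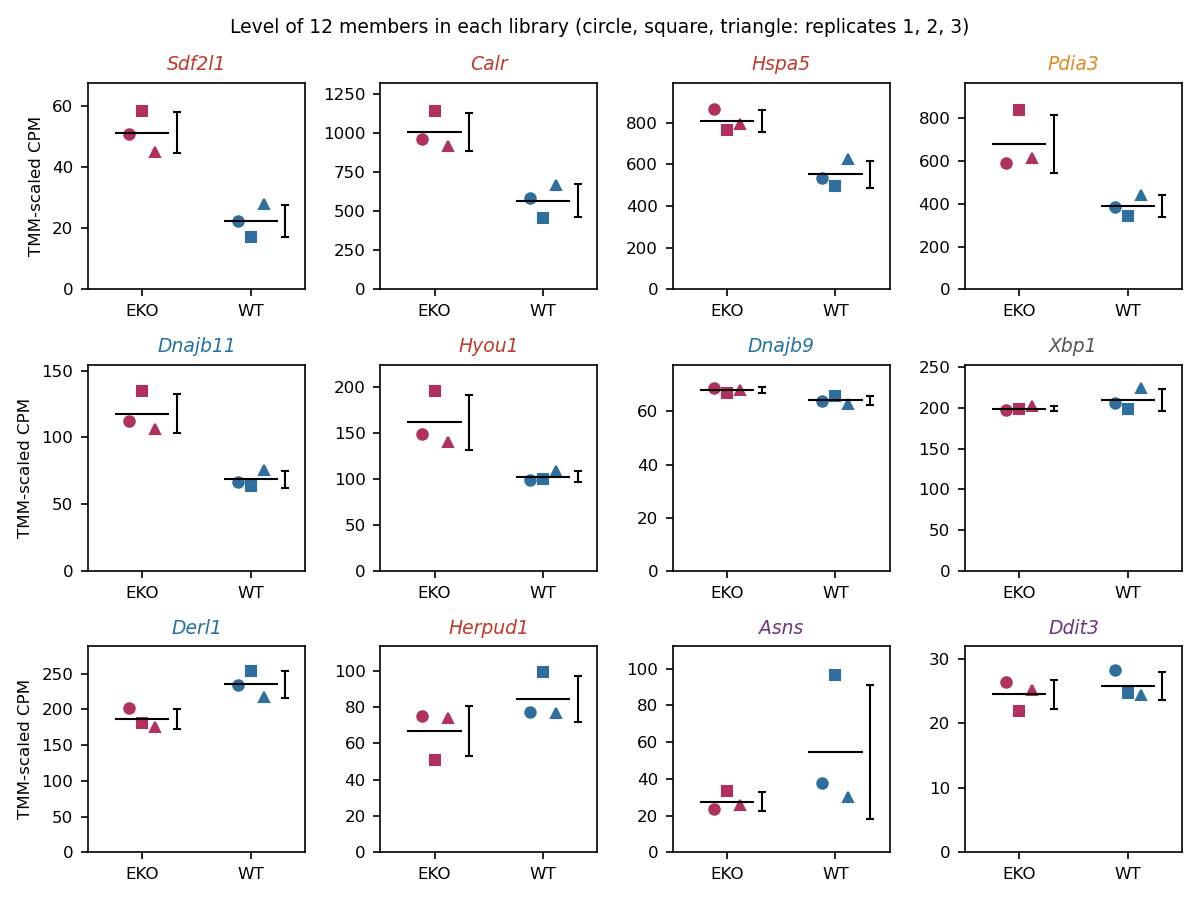
TMM-scaled CPM of 12 members in each library; circles, squares and triangles are replicates 1, 2 and 3 of EKO (left) and WT (right), lines are means and bars are SD (n = 3 each). Sdf2l1, Calr, Hspa5, Pdia3, Dnajb11 and Hyou1 have EKO libraries wholly above WT libraries, Derl1 and Herpud1 have them below, and Xbp1, Asns and Ddit3 overlap.

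Of the 8 XBP1-linked genes, 5 (62.5%) stood wholly higher and 1 (12.5%) wholly lower, against 25.1% and 17.7% of all genes tested. Their log2 differences ran from -0.34 to 0.78. Dnajb11 (ENSMUSG00000004460, chromosome 16, 22857845 to 22879634, plus strand, GRCm38), a soluble Hsp40 partner of BiP, was at 113, 134 and 107 CPM in EKO libraries, against 66.6, 63.4 and 75.5 CPM in WT libraries. The groups were far apart, with a log2 difference of 0.78 ± 0.13 (edgeR adjusted p = 0.0628, DESeq2 adjusted p = 0.000407). Dnajb9, another Hsp40, which brings BiP to IRE1 and is widely used as a sign of XBP1 activity, was at 68.9, 66.8 and 68.1 CPM in EKO libraries and 63.8, 65.9 and 62.6 CPM in WT libraries. Its groups were apart by less than 1 CPM, and the log2 difference was 0.083 ± 0.084 (edgeR adjusted p = 0.511), which was 0.050 without WT replicate 2 and turned to -0.015 when libraries were scaled by their totals alone. The ratio of Dnajb11 to Dnajb9 counts was 1.74 ± 0.241 in EKO libraries and 1.07 ± 0.124 in WT libraries (SD, n = 3 each). Dnajc3, the Hsp40 known as an inhibitor of PERK, was at 185, 204 and 179.9 CPM in EKO libraries, against 168, 162 and 175 CPM in WT libraries (0.18 ± 0.10 on the log2 scale, edgeR adjusted p = 0.282), or 0.097 without EKO replicate 2 and 0.095 without WT replicate 2.

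The ERAD members went in pairs that parted. Edem2 and Edem1 both bear on the mannose trimming that marks misfolded glycoproteins. Edem2 was at 66.8, 87.9 and 71.8 CPM in EKO libraries, against 48.4, 40.1 and 47.1 CPM in WT libraries, with 0.74 ± 0.14 on the log2 scale and an edgeR adjusted p of 0.0628. Edem1 was at 254, 266 and 229.9 CPM in EKO libraries and 242, 181 and 226 CPM in WT libraries. Edem1 groups overlapped, since WT replicate 1 was above EKO replicate 3, and its difference was 0.21 ± 0.15 (edgeR adjusted p = 0.352). Without EKO replicate 2 it was 0.14, and without WT replicate 2 it was 0.041. The ratio of Edem2 to Edem1 counts was 0.302 ± 0.0347 in EKO libraries and 0.210 ± 0.0107 in WT libraries (SD, n = 3 each).

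Derl2 and Derl1 are derlins, membrane proteins of the export channel. Derl2 was at 73.2, 78.6 and 72.7 CPM in EKO libraries, against 57.9, 53.8 and 59.6 CPM in WT libraries, with 0.39 ± 0.093 on the log2 scale and an edgeR adjusted p of 0.0647. Derl1 (ENSMUSG00000022365, chromosome 15, 57869502 to 57892448, minus strand, GRCm38) was at 202, 181 and 175 CPM in EKO libraries, against 234, 254 and 217 CPM in WT libraries. Every EKO library of Derl1 was below every WT library, with -0.34 ± 0.12 on the log2 scale, an edgeR adjusted p of 0.115 and a DESeq2 adjusted p of 0.0153. The ratio of Derl2 to Derl1 counts was 0.404 ± 0.0371 in EKO libraries and 0.245 ± 0.0316 in WT libraries (SD, n = 3 each). Syvn1, the Hrd1 ubiquitin ligase itself, was at 76.3, 78.4 and 66.3 CPM in EKO libraries and 79.4, 69.7 and 71.3 CPM in WT libraries. Its groups overlapped, and its difference of 0.0039 ± 0.11 turned negative under both other scalings tried. Derl2 overlaps Mis12 and Syvn1 overlaps Mrpl49 on the opposite strand, so part of their counts may be shared.

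ATF4-linked genes had overlapping groups in 5 of 5, against 57.2% of all genes tested. Ddit3, the pro-apoptotic factor CHOP, was at 26.4, 21.9 and 25.2 CPM in EKO libraries and 28.3, 24.7 and 24.4 CPM in WT libraries (-0.073 ± 0.13 on the log2 scale, edgeR adjusted p = 0.719), from -0.16 without WT replicate 2 to -0.021 without WT replicate 1. Trib3, a pseudokinase induced with CHOP, was at 9.97, 9.62 and 10.3 CPM in EKO libraries, against 8.53, 9.86 and 9.03 CPM in WT libraries (0.12 ± 0.17 on the log2 scale, 0.059 without WT replicate 1). Both genes varied little among the libraries. Ppp1r15a, the phosphatase subunit that removes the PERK mark from eIF2α, was at 24.5, 26.2 and 27.5 CPM in EKO libraries and 19.2, 17.7 and 26.5 CPM in WT libraries (0.30 ± 0.18 on the log2 scale, edgeR adjusted p = 0.287). WT replicate 3 lay within the EKO range, and the difference was 0.14 without WT replicate 2 and 0.51 without WT replicate 3. Ddit3 overlaps Mars and Ppp1r15a overlaps the testis gene Tulp2 on the opposite strand. Tulp2 averaged 2.07 CPM in EKO libraries and 31.0 CPM in WT libraries, so the counts of Ppp1r15a are uncertain.

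Asns (ENSMUSG00000029752, chromosome 6, 7675169 to 7693254, minus strand, GRCm38), asparagine synthetase, was at 23.8, 33.4 and 25.6 CPM in EKO libraries, against 37.8, 96.4 and 29.9 CPM in WT libraries. WT replicate 2 alone was far above the rest. The difference of -0.99 ± 0.45 on the log2 scale had an edgeR adjusted p of 0.183 and was -0.35 without WT replicate 2. Chac1, which degrades glutathione, was at 6.90, 2.12 and 3.60 CPM in EKO libraries and 5.14, 4.47 and 4.98 CPM in WT libraries. The EKO libraries spanned the whole WT range, and the difference of -0.21 ± 0.43 turned to 0.086 without EKO replicate 2.

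Set side by side, the branches ranked ATF6-linked, XBP1-linked, ATF4-linked. The median log2 difference was 0.43 over the 12 ATF6-linked genes, 0.19 over the 8 XBP1-linked genes and -0.073 over the 5 ATF4-linked genes, against 0.019 over all genes tested. Without WT replicate 2 these medians were 0.41, 0.072 and -0.16, and without EKO replicate 2 they were 0.40, 0.12 and 0.086, in the same order. The sensors and factors had a median of 0.35 (0.19 without WT replicate 2) and the other folding genes 0.62 (0.51). Leaving out genes that another of the factors is also known to drive gave 0.51 for ATF6-linked, 0.30 for XBP1-linked and -0.042 for ATF4-linked genes. These medians describe genes that share libraries and were not tested against each other. The branches were chosen with earlier results of these data known, so their order is a description only.

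By library, log2 CPM minus its mean over the 6 libraries had an ATF6-linked median of 0.21, 0.27 and 0.15 in EKO libraries, against -0.32, -0.30 and -0.13 in WT libraries. That separation exceeds the pooled SD between libraries of a genotype, 0.0860. The XBP1-linked median was 0.097, 0.20 and 0.028 in EKO libraries, against -0.070, -0.21 and -0.059 in WT libraries, with a pooled SD of 0.0846. The ATF4-linked median was 0.071, -0.11 and 0.0081 in EKO libraries and 0.061, 0.046 and -0.040 in WT libraries, with a pooled SD of 0.0770. The first and second of these groups kept EKO libraries above WT libraries, and the ATF4-linked group overlapped. EKO replicate 2 held the highest level of 18 of the 33 members and WT replicate 2 the lowest of 19, with 16 members having both. The share of all genes with such extremes was not counted, so these counts do not set the members apart from other genes. EKO replicate 2 and WT replicate 2 were also the lowest and the highest for the summed adipocyte markers, and the highest and the lowest for the summed macrophage markers.

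**Figure D4:**
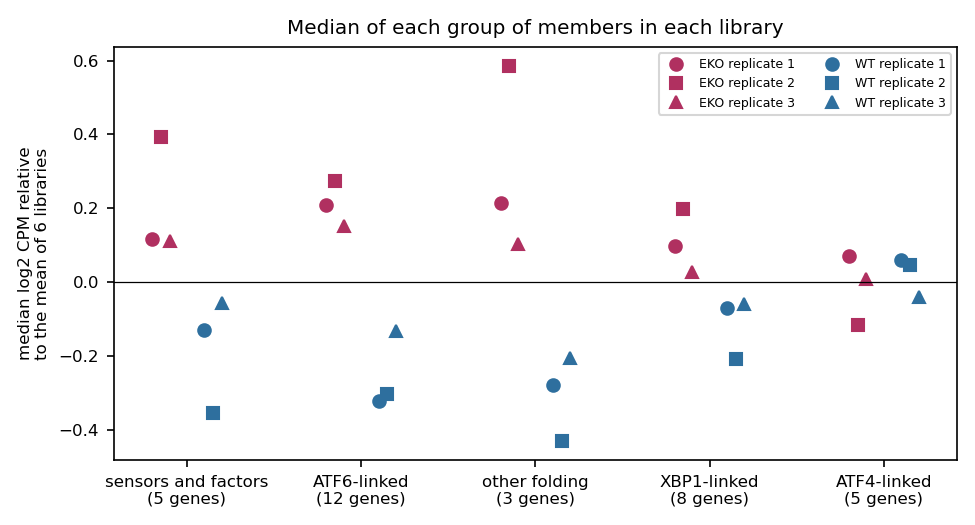
Median over each group of members of log2 CPM minus its mean over the 6 libraries, for EKO (red) and WT (blue) replicates 1 (circle), 2 (square) and 3 (triangle). EKO libraries lie above WT libraries in every group except the ATF4-linked one, and replicate 2 of each genotype is the outermost in the sensors, the other folding and the XBP1-linked genes.

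Summed over the 33 genes, EKO libraries held 6826 ± 687 CPM and WT libraries 4954 ± 407 CPM (SD, n = 3 each). The ATF6-linked genes summed to 3237 ± 219 CPM in EKO libraries and 2188 ± 231 CPM in WT libraries. The XBP1-linked genes summed to 1036 ± 64.0 CPM in EKO libraries and 928 ± 35.2 CPM in WT libraries. The ATF4-linked genes summed to 92.3 ± 0.813 CPM in EKO libraries and 116 ± 32.6 CPM in WT libraries, where WT replicate 2 held most of the spread through Asns. These sums weigh the most abundant genes the most.

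Per kilobase of exon, folding genes were the most abundant members. Calr led, with 350 ± 42.0 CPM per kilobase in EKO libraries and 197 ± 37.2 in WT libraries (SD, n = 3 each). P4hb followed at 246 ± 52.9 in EKO libraries and 180 ± 23.7 in WT libraries, then Pdia3 at 217 ± 43.2 in EKO libraries and 124 ± 15.9 in WT libraries. Hspa5 was at 191 ± 12.3 CPM per kilobase in EKO libraries and 131 ± 15.6 in WT libraries. P4hb was above both Hspa5 and Pdia3 in every EKO library. Pdia3 was below Hspa5 in EKO replicate 1 and above it in EKO replicates 2 and 3. Among factors, Atf4 was at 63.7 ± 8.62 in EKO libraries and 49.9 ± 6.79 in WT libraries, and Xbp1 at 61.3 ± 0.852 in EKO libraries and 64.6 ± 4.13 in WT libraries. The sensors were lower, with Atf6 at 13.7 ± 1.66 CPM per kilobase in EKO libraries and 10.1 ± 0.930 in WT libraries. At the low end Chac1 was at 2.57 ± 1.495 in EKO libraries and 2.97 ± 0.216 in WT libraries, and Derl3 at 1.48 ± 0.495 in EKO libraries and 1.35 ± 0.630 in WT libraries, which lay within each other's spread.

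**Figure D5:**
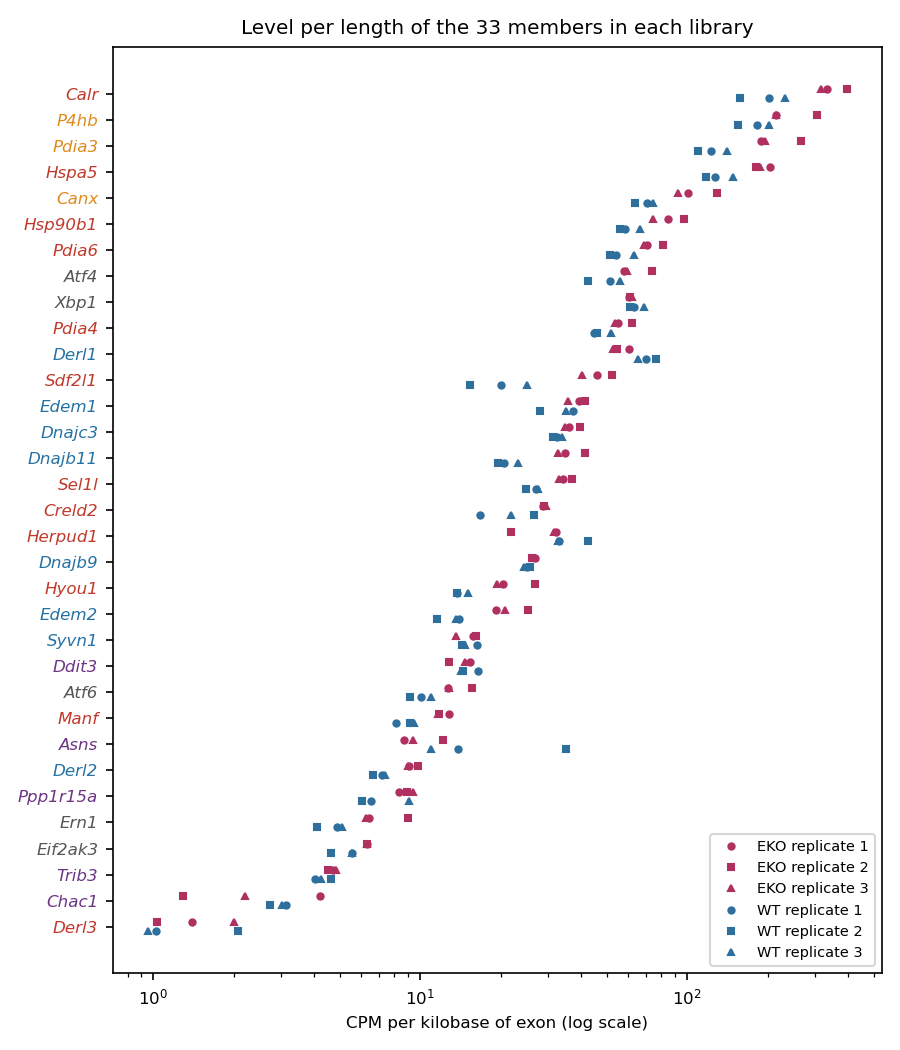
Level of the 33 members in CPM per kilobase of exon (log scale) in each EKO (red) and WT (blue) library; shapes are replicates 1 (circle), 2 (square) and 3 (triangle), and label colours mark ATF6-linked (red), other folding (orange), XBP1-linked (blue), ATF4-linked (purple) and sensor or factor genes (grey). Calr is highest, at 350 in EKO libraries, and Derl3 lowest, at 1.48.

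The promoter letters can be read beside these values. Of the 9 members with ERSE letters, 7 stood wholly higher in EKO fat and 0 lower (median log2 difference 0.42). The exceptions, Derl3 and Syvn1, had overlapping groups. Of the 20 members with a window and no ERSE, 12 stood wholly higher and 1 lower (median 0.29). Of 11 other tested genes with ERSE letters, 2 stood wholly higher and 4 lower (median -0.46), against 26.2% wholly higher and 18.3% lower among the 11400 tested genes matched to a window. The 4 members with CARE letters, Asns, Chac1, Herpud1 and Trib3, had a median of -0.27, with 0 wholly higher and 1, Herpud1, wholly lower. Herpud1 also holds ERSE-II letters, and the log2 difference of Asns went from -0.99 to -0.35 without WT replicate 2. Of 326 other tested genes with CARE letters, 82 stood wholly higher and 59 lower, with a median of 0.030. Letters in a window are a description and do not show binding.

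Other ER genes, from further lists that hold none of the 33, leaned the same way where they serve folding and glycosylation. Of 29 other ER chaperones and folding enzymes, 17 stood wholly higher and 2 lower (median log2 difference 0.30), against 25.1% and 17.7% of all genes tested. Tmx1, a membrane disulfide isomerase, averaged 97.2 ± 15.9 CPM in EKO libraries and 57.7 ± 4.12 CPM in WT libraries. Ero1lb, an oxidase that recharges disulfide isomerases, averaged 60.9 ± 4.63 CPM in EKO libraries and 36.1 ± 5.99 CPM in WT libraries. Erp44, which retains unfinished secretory proteins, averaged 77.9 ± 7.43 CPM in EKO libraries and 56.97 ± 2.82 CPM in WT libraries. All of these were wholly higher in EKO libraries, with edgeR adjusted p-values of 0.0628, 0.0628 and 0.0647. In this and every other list edgeR called 0 genes, and the genes named are those with the smallest p in each list.

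N-glycosylation genes gave 14 of 21 wholly higher and 1 lower (median 0.28), beside the same 25.1% and 17.7% of all genes. Tusc3, an oligosaccharyltransferase subunit, averaged 57.9 ± 9.35 CPM in EKO libraries and 33.1 ± 2.86 CPM in WT libraries. Ostc, another subunit of that enzyme, averaged 75.3 ± 13.4 CPM in EKO libraries and 42.7 ± 6.84 CPM in WT libraries, and Rpn1, a core subunit, averaged 229 ± 42.1 CPM in EKO libraries and 146 ± 13.1 CPM in WT libraries. All of these stood wholly higher in EKO libraries. Translocon and signal peptidase genes gave 8 of 18, or 44.4%, wholly higher and 1 lower (median 0.25), led by Sec11c, the catalytic signal peptidase subunit (87.1 ± 11.3 CPM in EKO libraries and 40.5 ± 11.0 CPM in WT libraries). Spcs3 of the same peptidase averaged 94.3 ± 10.8 CPM in EKO libraries and 57.7 ± 11.1 CPM in WT libraries, and Tram1 of the translocon averaged 171 ± 25.0 CPM in EKO libraries and 114 ± 10.5 CPM in WT libraries. Other ERAD genes were mixed, with 9 of 24 (37.5%) wholly higher and 5 (20.8%) lower (median 0.16), the lower share being near that of all genes. Fam8a1, a cofactor of Hrd1, averaged 67.4 ± 6.11 CPM in EKO libraries and 101 ± 9.27 CPM in WT libraries and stood wholly lower, whereas the conjugating enzyme Ube2g2 averaged 60.6 ± 2.79 CPM in EKO libraries and 49.0 ± 3.27 CPM in WT libraries and the ligase March6 averaged 203 ± 23.9 CPM in EKO libraries and 162 ± 5.05 CPM in WT libraries, both wholly higher.

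Genes around eIF2 and ATF4 were mixed in direction. Of 26 other ATF4 targets, 7 (26.9%) stood wholly higher and 10 (38.5%) lower, with a median of -0.16, against 25.1% and 17.7% of all genes tested. Phgdh, the first enzyme of serine synthesis, averaged 78.3 ± 43.3 CPM in EKO libraries and 293 ± 63.1 CPM in WT libraries. Psat1, the next enzyme of that pathway, averaged 103 ± 24.7 CPM in EKO libraries and 185 ± 24.9 CPM in WT libraries, and Eif4ebp1, a repressor of cap-dependent translation, averaged 101 ± 15.0 CPM in EKO libraries and 192 ± 29.9 CPM in WT libraries. All of these stood wholly lower in EKO libraries, with edgeR adjusted p-values of 0.0643, 0.0649 and 0.0628. Of 12 cytosolic tRNA synthetases, also known as ATF4 targets, 5 (41.7%) stood wholly higher and 0 lower (median 0.22), among them Nars (190.1 ± 31.6 CPM in EKO libraries and 125 ± 8.11 CPM in WT libraries), Sars (127 ± 11.9 CPM in EKO libraries and 93.9 ± 8.30 CPM in WT libraries) and Cars (46.5 ± 7.50 CPM in EKO libraries and 31.4 ± 4.86 CPM in WT libraries). The 11 genes of eIF2 kinases, exchange factor and phosphatase subunits gave 4 (36.4%) wholly higher and 2 (18.2%) lower (median 0.14). Eif2ak4, the kinase GCN2 that senses amino acid lack, averaged 35.4 ± 1.82 CPM in EKO libraries and 24.6 ± 3.33 CPM in WT libraries, Eif2b2 averaged 34.0 ± 1.18 CPM in EKO libraries and 26.8 ± 0.355 CPM in WT libraries, and Eif2b3, another exchange factor subunit, averaged 17.4 ± 1.72 CPM in EKO libraries and 27.7 ± 2.34 CPM in WT libraries.

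Of 15 cytosolic heat shock genes 7 (46.7%) stood wholly higher and 1 lower (median 0.18), against 25.1% and 17.7% of all genes tested. Hsph1, a nucleotide exchange factor, averaged 122 ± 12.5 CPM in EKO libraries and 68.9 ± 22.9 CPM in WT libraries, and the co-chaperone Bag3 averaged 122 ± 24.6 CPM in EKO libraries and 80.7 ± 11.0 CPM in WT libraries. Their partner Hspb8, a small heat shock protein, averaged 52.5 ± 3.50 CPM in EKO libraries and 113 ± 31.2 CPM in WT libraries and stood wholly lower. Of 8 genes of the ATF6 family and related membrane factors, 2 (25.0%) stood wholly higher and 1 (12.5%) lower (median 0.094), no more than among all genes. Mbtps2, the protease that makes the final cut of ATF6, averaged 44.6 ± 10.4 CPM in EKO libraries and 24.8 ± 5.75 CPM in WT libraries, Creb3l3 averaged 3.15 ± 0.882 CPM in EKO libraries and 1.23 ± 0.422 CPM in WT libraries, and Creb3l2 averaged 90.8 ± 4.68 CPM in EKO libraries and 111 ± 14.8 CPM in WT libraries. Of 7 tested ER-phagy receptors 3 (42.9%) stood wholly higher and 1 (14.3%) lower (median -0.033), those higher being Tex264 (119 ± 4.70 CPM in EKO libraries and 83.7 ± 9.41 CPM in WT libraries), Retreg2 (107 ± 12.1 CPM in EKO libraries and 77.3 ± 3.61 CPM in WT libraries) and Retreg1 (23.2 ± 4.98 CPM in EKO libraries and 11.6 ± 4.81 CPM in WT libraries).

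Markers of other cells were set beside these values, since secretory cells are rich in ER genes. Summed over 11 plasma cell markers, EKO libraries held 713 to 1651 CPM and WT libraries 618 to 986 CPM, with overlapping groups and the highest value in EKO replicate 3. Over 10 mast cell markers EKO libraries held 157 to 839 CPM, against 67.9 to 89.8 CPM in WT libraries. Over 12 fibroblast and progenitor markers EKO libraries held 9448 to 13076 CPM, against 5292 to 7247 CPM in WT libraries. Over 10 endothelial markers EKO libraries held 631 to 1104 CPM, against 1432 to 1705 CPM in WT libraries. Hepatocyte markers summed to 9.69 to 234 CPM in EKO libraries and 134 to 1959 CPM in WT libraries, of which Cyp2e1, an enzyme that fat also expresses, made 1950.4 CPM in WT replicate 2. Without Cyp2e1 they summed to 10.03, 8.98 and 204 CPM in EKO libraries, against 74.9, 8.11 and 37.0 CPM in WT libraries, highest in EKO replicate 3, with albumin (Alb) at 122 CPM. Testis germ cell markers summed to 50.1 to 207 CPM in EKO libraries and 53.5 to 3041 CPM in WT libraries, highest in WT replicate 2. Epididymis markers stayed between 3.83 and 51.0 CPM in EKO libraries and between 5.09 and 46.1 CPM in WT libraries. The 6 pancreatic acinar markers found, of 12 listed, summed to 16.2 to 30.5 CPM in EKO libraries and 29.1 to 37.5 CPM in WT libraries. The macrophage, mast cell and fibroblast sums moved with genotype in the direction of the chaperone genes. Gene by gene, 14 of 15 macrophage, 8 of 10 mast cell and 6 of 12 fibroblast and progenitor markers stood wholly higher. In the same order 1, 1 and 0 stood wholly lower, against 25.1% higher and 17.7% lower among all genes tested. Of 11 plasma cell markers, 2 (18.2%) stood wholly higher and 0 lower. Among 15 adipocyte markers 0 stood wholly higher and 14 lower, and among 10 endothelial markers 0 and 10. The part of these cells in the values of the chaperone genes was not tested.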

How the data were processed

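Total RNA of mouse fat was extracted with TRIzol and made into mRNA libraries, per the labels' protocols. The authors deposited 1 table with raw read counts of 32244 genes in 6 libraries, and, per the file headers, their own comparison as a mean signal, a fold change (ratio), a log2 fold change and raw and adjusted p-values. The submitters' processing notes name the build GRCm38. The sources used here do not give the aligner, the counter or its strand setting. From the counts, edgeR 4.0.16 (R 4.3.3; filterByExpr, TMM scaling, quasi-likelihood F test, genotype as the sole term) was fitted to 16121 genes in all 6 libraries, with a Benjamini-Hochberg adjusted p under 0.05 over all of them. A standard error is the log2 difference over the root of F. Levels are given as TMM-scaled CPM with the SD over 3 libraries, and library medians use log2(CPM + 0.5). Levels per length use the union of exons in GENCODE M21 (GRCm38). The table's coordinates are on GRCm38, as is the RefSeq build of the promoter windows (GRCm38.p6), which were matched by symbol and searched on both strands. No 2 libraries were alike within sampling noise: the lowest chi-square per degree of freedom of any pair was 20.6.

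The members, the branches and the other lists were chosen with earlier results of these data known. Named genes are the 33 members, Eepd1 and the 3 genes of each pathway list with the smallest p. Alternatives were other scalings and count filters, DESeq2 1.42.0, limma-voom (limma 3.58.1) with and without sample quality weights, a replicate block and each library left out. The fits were tested on simulated counts. Correlations of the deviations of same-numbered libraries were 0.29, -0.31 and -0.34, so the numbers were not taken as pairs. C-terminal residues were planned and not analysed here.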

Additional observations from a re-analysis of the deposited data

How the results depend on the processing

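With edgeR, 0 genes and 0 members were called under both other scalings, both other count filters, limma-voom and the replicate block. DESeq2 called 3392 of 16155 genes (1757 higher, 1635 lower) and 13 of 33 members (12 higher, 1 lower). With quality weights, limma-voom called 4101 of 16121 genes (2387 higher, 1714 lower) and 16 of 33 members (15 higher, 1 lower). DESeq2 without EKO replicate 2 called 1936 of 14896 genes (899 higher, 1037 lower) and 9 of 33 members, all higher. Without WT replicate 2 it called 2581 of 15206 genes (1381 higher, 1200 lower) and 8 of 33 members, all higher. Both of these settings were chosen after seeing the data. Leaving out each library in turn, edgeR called 0 to 443 genes and 0 to 1 members, the highest without WT replicate 2. The cause of these shifts was not tested.

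The ATF6-linked median (0.43) was 0.33 with library totals alone and 0.53 with quality weights, and 0.37 to 0.50 with a library left out. The XBP1-linked median (0.19) was 0.088 with library totals, 0.30 without genes that another factor drives, 0.070 with DESeq2 without WT replicate 2, and 0.072 to 0.24 with a library left out. The ATF4-linked median (-0.073) was -0.17 with library totals, 0.081 and -0.16 with DESeq2 without EKO replicate 2 and without WT replicate 2, and -0.16 to 0.086 with a library left out. Library totals moved the median of all genes to -0.080 from 0.019.

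Signs turned in 4 members. Dnajb9 was -0.015 with library totals. Syvn1 (0.0039) was -0.043 with size factors, -0.099 with library totals, -0.039 with no filter, -0.033 with DESeq2, -0.11 with quality weights, -0.074 and -0.089 with DESeq2 without EKO replicate 2 and without WT replicate 2, and -0.088 to 0.078 with a library left out. Chac1 (-0.21) was 0.081 with DESeq2 without EKO replicate 2 and -0.75 to 0.086 with a library left out. Derl3 (0.13) ranged over -0.15 to 0.53 with a library left out. Of the members' recalculated log2 differences, 464 kept their direction and their side of the threshold, 47 gained a call and 17 turned sign. The main fit called 0 members, so keeping the side of the threshold means only that neither fit made a call. It does not measure how steady the values were. Leaving out 1 library turned the sign or moved the value by more than 1.5 times in 17 of the 33 members.

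The replicate number as a block gave medians of 0.44, 0.20 and -0.075 for ATF6-, XBP1- and ATF4-linked genes. Not every library correlated best with its own number, so the numbers were not taken as pairs. With 3 libraries per genotype, such correlations cannot show that no pairing exists. The biological coefficient of variation was 37.0% with 3 libraries per genotype, and low genes such as Derl3 and Chac1 rest on few counts.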
